A study of Patiria miniata with 18 samples.

Results

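Egr is a zinc finger transcription factor, and the gene measured here is the bat star (Patiria miniata) locus XLOC_041700, which the authors' table names Pm-Egr. The locus is defined by its identifier, and it was chosen with earlier results of these data known. It is the only locus that the table names Egr, 1 of 80165 loci counted and 1 of 31798 whose levels were high enough to test (above 3 CPM, reads scaled to a common library size, in 2 or more libraries). Larvae were bisected at 7 dpf (days post-fertilization) into anterior and posterior fragments, which regenerated the missing body part, and uncut sibling larvae served as controls. RNA was taken from pools of approximately 300 larvae or fragments kept at 16 °C, at 3 hpb (hours post-bisection, labelled 0 dpb), 3 dpb (days post-bisection) and 6 dpb. Each of the 9 groups has 2 libraries, made from replicates 1 and 2. No larva carried a transgene or received an agent, and a library averages over every tissue of its pool, so more cells that express a gene and more RNA per cell cannot be told apart.

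Egr factors are encoded by immediate early genes: in vertebrates they are transcribed within minutes of growth factor, stress or wound signals, without new protein synthesis. The signal passes through mitogen-activated protein kinases (MAP kinases) to serum response factor and Ets family cofactors such as Elk on the Egr promoter, and the protein then binds GC-rich sites through its zinc fingers. Nab corepressors and MAP kinase phosphatases limit the response, and Egr genes are also known as early wound genes in planarians.

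The authors' assembly places the locus on the minus strand of scaffold 3299, from 6037 to 17940 of the P. miniata v1.0 assembly. Its single transcript, built on the gene model PMI_027204, has 2 exons. The first covers 10344 to 17940 (7597 bases) and the second 6037 to 9366 (3330 bases), with an intron of 977 bases between them and 10927 exon bases in all. The only sequence of the gene used here is that of the probe designed by the study for its Nanostring assay, which counts RNA molecules by hybridization. The study listed that probe as not working, so the counts of reads are the measurement described below. The probe has 100 bases, of which 44 are G or C, and is shown because it identifies the transcript that was targeted.

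Pm-Egr probe: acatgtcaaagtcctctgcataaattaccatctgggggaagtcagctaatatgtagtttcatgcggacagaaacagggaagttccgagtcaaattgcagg

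Libraries held between 15868104 and 36152675 reads on loci, with a median of 20631998. Summed markers of body regions followed the labels at 3 hpb, though not every single marker did. The summed level of 5 posterior markers (bra, Eve, Hox11/13b, frz9/10 and wnt3) was 130 to 179 CPM in uncut controls, 32.9 to 38.7 CPM in anterior fragments and 343 to 404 CPM in posterior fragments. That of 5 anterior ectoderm markers was 186 to 254 CPM in controls, 258 to 462 CPM in anterior fragments and 44.1 to 59.2 CPM in posterior fragments, and no marker of either list was at 0 in any group. In posterior fragments frz9/10 alone held 297 and 242 CPM. The log2 fold changes there were 1.79 for frz9/10, 1.09 for wnt3, 0.71 for bra, -0.002 for Hox11/13b and -0.12 for Eve. In anterior fragments they were 1.76 for foxq2, 0.75 for Nkx2.1, 0.53 for six3, 0.37 for hbn and -0.57 for Rx-1. None of these changes was called with the replicate number as a block.

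At 3 hpb, Egr was high in all 4 libraries of fragments and low in both libraries of uncut larvae. The controls held 1213 and 789 reads of Egr in replicates 1 and 2, or 76.0 and 38.8 CPM after scaling by edgeR's TMM method. Anterior fragments held 21272 and 6292 reads, or 1385 and 483 CPM. Posterior fragments held 15607 and 3181 reads, or 749 and 276 CPM. The lowest fragment library was thus above the highest control, a separation shared by 7.18% of the tested loci. By read count Egr ranked 66 among the tested loci in replicate 1 of the anterior fragments and 1950 in the control of the same replicate. In replicate 2 the ranks were 363 and 3933. Ranked by CPM per kilobase of exon among the tested loci, Egr stood at 371 and 8386 in replicate 1 and at 1688 and 15026 in replicate 2.

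Within replicate 1, Egr was 18.2-fold higher in anterior fragments than in controls, and within replicate 2 it was 12.5-fold higher. In posterior fragments the ratios were 9.86 and 7.13. Replicate 1 gave the higher level in each of the 3 groups at this time, so the ratios of the replicates lay closer together than the levels.

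The fitted change in anterior fragments at 3 hpb was a log2 fold change of 4.10 (SE 1.46, 95% CI 0.92 to 7.29), or 17.2-fold. It was 1.89 without replicate 1 of the anterior fragments and 5.85 without replicate 1 of the controls. These values use a replicate effect fitted over all times, although the order of the Egr replicates differed between times. Within replicates 1 and 2 the log2 differences were 4.19 and 3.64. In edgeR's quasi-likelihood test of all 18 libraries with the replicate number as a block, the p was 0.0159. The Benjamini-Hochberg adjusted p over all tested loci was 0.110, which missed the threshold of 0.05 that 2.31% of the tested loci passed as higher. The call depended on how the replicates were modelled and on the test used. A single block assumes 1 replicate effect at every time. For Egr, replicate 1 was higher in each group at 3 hpb and replicate 2 in each group at 3 dpb. With a separate replicate term at each time point, called the per-time block below, the log2 fold change was 3.91 (SE 0.67) and the edgeR adjusted p 0.00218, where 12.5% of loci were called higher. It also passed in a fit of the 3 hpb libraries alone (edgeR adjusted p = 1.61e-04) and in DESeq2's Wald test with the single block (adjusted p = 0.0212). Without a block the edgeR adjusted p was 0.284.

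In posterior fragments at 3 hpb the log2 fold change was 3.23 (SE 1.40, 95% CI 0.17 to 6.29), or 9.38-fold, with an edgeR p of 0.0402 and an adjusted p of 0.424. It was 1.07 without replicate 1 of the posterior fragments and 4.97 without replicate 1 of the controls. These values, too, use a replicate effect fitted over all times. Within replicates 1 and 2 the log2 differences were 3.30 and 2.83. In the fit of all 18 libraries 0.0252% of the tested loci, 8 in all, were called higher in posterior fragments. With the per-time block the log2 fold change was 3.06 (SE 0.64) and the edgeR adjusted p 0.0277, where 2.43% of loci were called higher. The fit of the 3 hpb libraries alone gave an edgeR adjusted p of 0.00854, while DESeq2's test and the fit without a block did not call it.

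By size of the fitted change alone, Egr ranked 8 among the 31798 tested loci for anterior fragments and 20 for posterior fragments, and among the 14559 tested loci that carry a gene name it ranked 2 and 6. By the study's criterion for differential expression, read here as more than 2-fold with a p under 0.05 before adjustment, it was higher in both fragments, as were 7.30% of the tested loci in the former and 3.47% in the latter comparison. Scaling by library size alone shifted the median over all tested loci by -0.43 (anterior) and -0.38 (posterior) on the log2 scale, and Egr then stood at 3.82 and 2.99. The level of Egr in anterior less posterior fragments was 0.88 on the log2 scale (SE 1.29, 95% CI -1.95 to 3.70, edgeR adjusted p = 0.844), an interval that holds differences in either direction, in a comparison where 5.29% of loci were called.

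**Figure D1:**
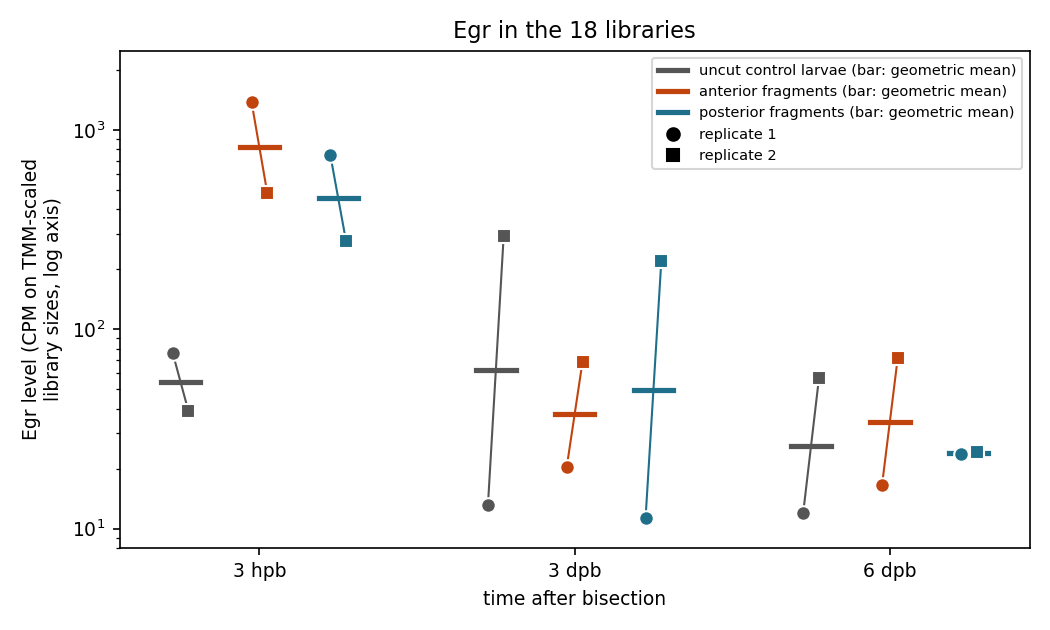
Egr level in each of the 18 libraries, in CPM on TMM-scaled library sizes on a log axis, by time after bisection; circles are replicate 1, squares replicate 2, lines join the replicates of a group and bars give the geometric mean. All 4 fragment libraries at 3 hpb lie between 276 and 1385 CPM, above the controls of that time at 38.8 and 76.0 CPM, while replicate 2 of the uncut control at 3 dpb reached 295 CPM.

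At 3 dpb the levels of Egr no longer separated fragments from controls. Anterior fragments held 20.4 and 68.7 CPM in replicates 1 and 2, posterior fragments 11.3 and 220 CPM, and uncut controls 13.1 and 295 CPM. Within replicates, the ratio to the control was 1.55 and 0.233 for anterior, and 0.860 and 0.746 for posterior fragments. The log2 fold changes were -1.50 (95% CI -4.41 to 1.41) in anterior and -0.40 (95% CI -3.21 to 2.41) in posterior fragments, each with an edgeR adjusted p of 1, where 2.26% and 0% of loci were called. Without replicate 2 of the controls at 3 dpb they were 1.21 and 2.44. Without replicate 2 of the posterior fragments, the posterior value was -3.06. These values use a replicate effect fitted over all times. Within replicates 1 and 2 the log2 differences were 0.63 and -2.10 in anterior, and -0.22 and -0.42 in posterior fragments.

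At 6 dpb Egr was low in every library, between 11.96 and 71.9 CPM. Anterior fragments held 16.5 and 71.9 CPM, posterior fragments 23.7 and 24.3 CPM, and controls 11.96 and 56.7 CPM, and the groups overlapped. The log2 fold change was 0.38 (95% CI -2.44 to 3.21) in anterior and -0.10 (95% CI -2.99 to 2.78) in posterior fragments, with an edgeR adjusted p of 1 in each, where 2.19% and 0.00629% of loci were called. These intervals are wide enough to hold changes of more than 2-fold in either direction.

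**Figure D2:**
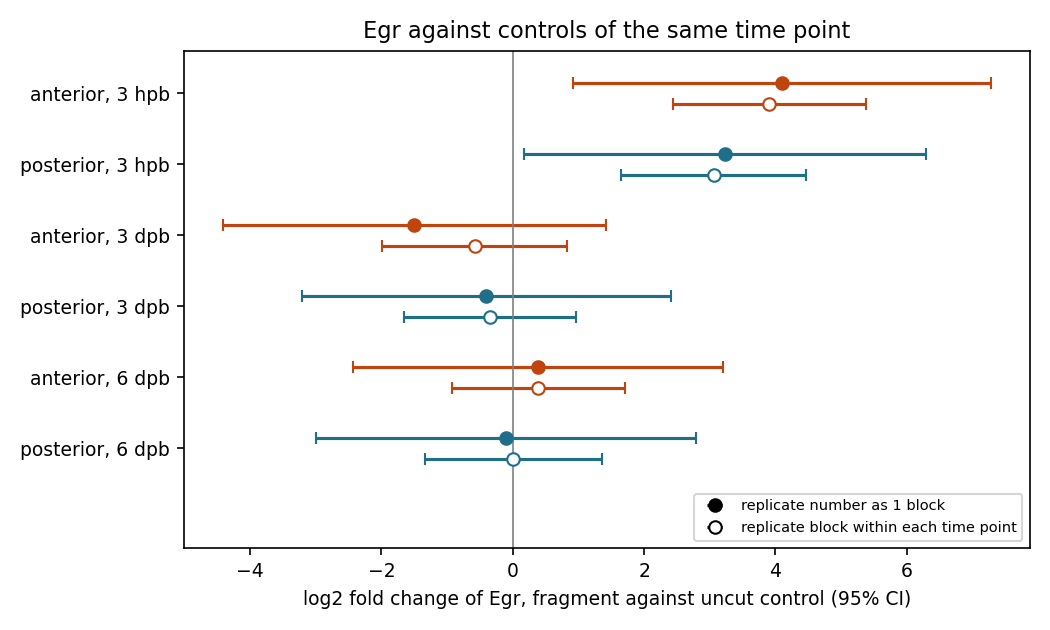
Log2 fold change of Egr in anterior (orange) and posterior (blue) fragments relative to the uncut control of that time, with 95% confidence intervals; filled points are from the fit with the replicate number as 1 block, open points from the fit with the per-time block. The intervals at 3 hpb lie above 0 in both fits, and those at 3 and 6 dpb include 0.

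The change over time was tested within each kind of sample. From 3 hpb to 3 dpb, Egr in anterior fragments went from 1385 and 483 CPM to 20.4 and 68.7 CPM, a log2 change of -4.98 (SE 1.54). The edgeR adjusted p was 0.171, where 0.0126% of loci were called lower. With the per-time block the log2 change was -4.21 (SE 0.69) and the edgeR adjusted p 0.00527, where 7.48% were called lower. DESeq2 called it too (adjusted p = 0.0111). For a change between times, the per-time block takes the spread between pools of the same time out of the error. Its p therefore does not measure that spread.

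In posterior fragments the levels went from 749 and 276 CPM to 11.3 and 220 CPM, so the levels of the 3 dpb replicates lay far apart. The log2 change was -3.004 (SE 1.47, edgeR adjusted p = 0.430), where 0.00314% of loci were called lower. It was -3.14 with the per-time block (edgeR adjusted p = 0.0170), where 5.83% were called lower. That p, too, leaves out the spread between pools of the same time. Replicate 1 went from 749 to 11.3 CPM, and replicate 2 from 276 to 220 CPM. Uncut controls went from 76.0 and 38.8 CPM to 13.1 and 295 CPM, a log2 change of 0.63 (SE 1.40, edgeR adjusted p = 1). From 3 to 6 dpb no change of Egr was called in any kind of sample, with log2 changes of -0.07 in anterior fragments, -1.66 in posterior fragments and -1.96 in controls.

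Whether the difference from controls itself changed with time was tested as an interaction. From 3 hpb to 3 dpb the difference of anterior fragments from controls moved by -5.60 on the log2 scale (SE 1.95, edgeR adjusted p = 0.746) and that of posterior fragments by -3.63 (SE 1.87, edgeR adjusted p = 1). From 3 hpb to 6 dpb the values were -3.72 (SE 1.88, edgeR adjusted p = 0.561) and -3.33 (SE 1.88, edgeR adjusted p = 0.535). None of the 4 was called, nor with the per-time block, where the edgeR adjusted p ranged from 0.0566 to 0.196. That block called 0.189% and 0.00314% of loci for the change to 3 dpb and 2.32% and 5.37% for the change to 6 dpb, in anterior and posterior fragments. None of the 19 edgeR tests of Egr over all 18 libraries passed an adjusted p of 0.05 with the replicate number as a single block. With that block, DESeq2's Wald test called Egr in anterior fragments at 3 hpb (adjusted p = 0.0212). It also called the change of anterior fragments from 3 hpb to 3 dpb (adjusted p = 0.0111).

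Ordered by mean log2 CPM, anterior fragments at 3 hpb came first (934 ± 638 CPM, SD, n = 2), then posterior fragments at 3 hpb (513 ± 334 CPM, SD, n = 2). The uncut controls at 3 dpb followed (154 ± 200 CPM, SD, n = 2), then the controls at 3 hpb (57.4 ± 26.3 CPM, SD, n = 2). Posterior fragments at 6 dpb came last (24.0 ± 0.418 CPM, SD, n = 2). Every group overlapped its neighbour in this order, so no single step in it exceeded the spread between replicates when these are taken as unpaired. For the first step, from posterior to anterior fragments at 3 hpb, the fit of the 3 hpb libraries alone gave a log2 difference of 0.82 (SE 0.26, edgeR adjusted p = 0.117) and the per-time block 0.85 (SE 0.60, edgeR adjusted p = 0.396).

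The spread between replicates of Egr was wide in some groups after 3 hpb. In uncut controls at 3 dpb, replicate 2 was 22.5 times replicate 1, and in posterior fragments at 3 dpb 19.5 times. In each of these groups few loci were so far apart in that direction, 0.984% and 1.04% of those tested. Replicate 2 was 3.37 times replicate 1 in anterior fragments at 3 dpb, and at 6 dpb 4.74 times in controls and 4.37 times in anterior fragments, with 8.36%, 3.82% and 4.21% of loci as far apart. In posterior fragments at 6 dpb the replicates were close, at 1.02 times. At 3 hpb the order was the opposite, with replicate 1 at 1.96 times replicate 2 in controls, 2.87 times in anterior and 2.71 times in posterior fragments. Of the 13 loci of regulators that the study names beside Egr, 10 were higher in replicate 2 of the controls at 3 dpb, with a median difference of 1.49 on the log2 scale beside -0.02 for all tested loci. What differed between these pools was not tested.

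Pearson's r over the 18 libraries, computed on log2 CPM, was used to name the loci most like Egr among the 14558 other named loci, as a description. The libraries share groups and replicates, so they are not independent points. Fra2, a Fos-related partner of Jun, came first (r = 0.96), followed by Mcl, a gene that the study lists with the early regulators (r = 0.96), and Btg4 of the BTG family, which in vertebrates holds antiproliferative genes (r = 0.95). KnkL (r = 0.94), Stam (r = 0.93), MucL (r = 0.93) and both loci named Trb (r = 0.93 each) followed. In all, 75 tested loci, 40 of them named, had an r over 0.9, and the median over all tested loci was -0.05.

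Fra2, Mcl and Btg4 had, as Egr did, high fragments at 3 hpb and a replicate 2 of the 3 dpb controls above both controls of 3 hpb. Of the other 5 loci only Stam had such a control, at 65.5 CPM beside 59.7 and 34.0 CPM. Fra2 stood at 280 and 121 CPM in controls at 3 hpb, 1921 and 623 CPM in anterior fragments and 1153 and 450 CPM in the posterior ones. In controls at 3 dpb it stood at 66.1 and 1189 CPM. The replicates there lay further apart than any fragment library lay from a control at 3 hpb. Btg4 went from 366 and 437 CPM in controls at 3 hpb to 1789 and 1203 CPM in anterior and 1326 and 1147 CPM in posterior fragments, and stood at 204 and 1276 CPM in controls at 3 dpb. Mcl stood at 469 and 331 CPM in the controls at 3 hpb, at 1704 and 999.6 CPM in anterior and at 1248 and 866 CPM in posterior fragments. Over the 12 libraries of 3 and 6 dpb alone, an alternative chosen after the data were seen, r to Egr was 0.97 for Fra2, 0.96 for Btg4 and 0.90 for Mcl. It was 0.83 to 0.87 for the other 5 loci. All 8 were picked for their r over the 18 libraries, which include these 12.

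**Figure D3:**
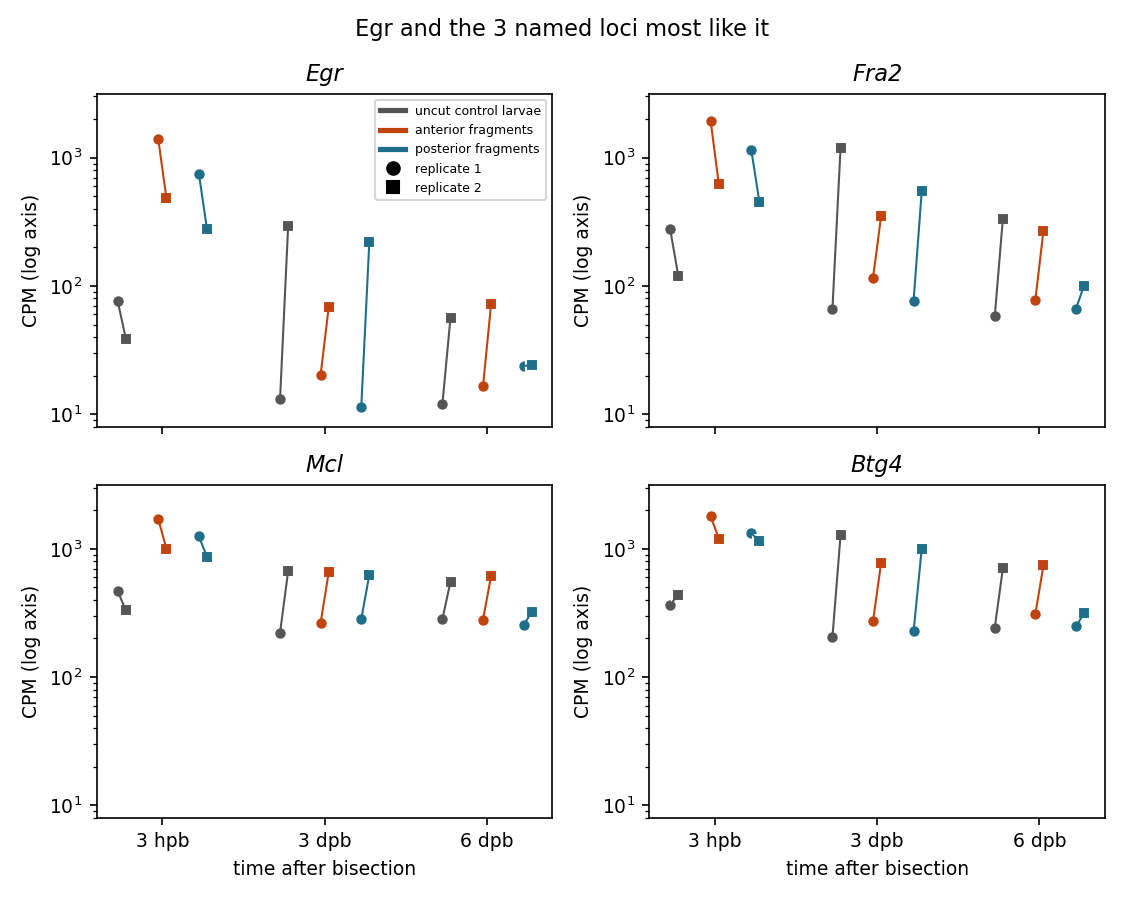
Levels in CPM (log axis, same scale in each panel) of Egr and the 3 named loci most like it over the 18 libraries, Fra2, Mcl and Btg4; circles are replicate 1, squares replicate 2, and lines join the replicates of a group. Each panel shows high fragments at 3 hpb and a replicate 2 above replicate 1 in every group at 3 dpb, for Fra2 from 66.1 to 1189 CPM in uncut controls.

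Upstream of Egr in the signalling chain, the MAP kinase cascade list holds 21 tested loci. In anterior fragments at 3 hpb 5 were called higher and 0 lower, and 20 had a positive value. The median log2 fold change was 0.72, beside -0.01 for all tested loci, of which 2.31% were called higher and 4.76% lower. Mkk3/6 (XLOC_072046), a kinase that activates p38, had a log2 fold change of 2.12 (SE 0.49, edgeR adjusted p = 0.0268). Mapk15 (XLOC_036408), an atypical MAP kinase, had 1.77 (SE 0.48, edgeR adjusted p = 0.0492). Both loci of Jnk, the stress kinase that phosphorylates Jun, were called at 1.17 (SE 0.27) and 1.19 (SE 0.29). With library size alone 2 loci of the list were called higher and 1 lower, beside 0.975% and 11.2% of all tested loci, and without a block 0 in either direction, beside 0.248% and 1.67%. In posterior fragments 0 were called by edgeR with 1 block, beside 0.0252% of all tested loci called higher. The study's criterion was passed there as higher by 5, beside 3.47% of all tested loci. The median was 0.40, beside -0.03 for all tested loci. With the per-time block, where 12.5% and 14.5% of loci were called higher and lower in anterior and 2.43% and 1.86% in posterior fragments, 9 were called higher in anterior and 2 in posterior fragments. The remaining locus called with 1 block in anterior fragments was another of Mkk3/6 (XLOC_002559), at 1.77 (SE 0.39). The called loci thus carried only the names Mkk3/6, Mapk15 and Jnk, and the counts are of loci, not of genes. Several of these genes have more than 1 locus of the name, and reads could be split among them. Whether loci of a name are parts of 1 gene was not tested.

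The levels of Mkk3/6 (XLOC_072046) show a different spread from that of Egr. It stood at 3.89 and 7.37 CPM in controls, 9.44 and 50.4 CPM in anterior and 7.73 and 38.9 CPM in posterior fragments at 3 hpb, so that replicate 2 was the higher one where replicate 1 was for Egr.

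Of 18 loci of the factor families that act on Egr promoters in vertebrates (Srf, its cofactors, Ets and Creb factors), 1 was called higher and 0 lower in anterior fragments at 3 hpb, beside 2.31% and 4.76% of all tested loci, with a median of 0.70. It was an Ets1/2 locus (XLOC_004054) at 1.49 (SE 0.39, edgeR adjusted p = 0.0399), and the count was 0 without replicate 2 of the controls at 3 dpb, with library size alone and without a block. Srf itself, the serum response factor, had values of 0.04 and 0.32 at its loci and was not called. Elk, an Ets factor that partners Srf, had 1.62 and 1.40, with edgeR adjusted p values of 0.339 and 0.459 that became 0.00108 and 0.00317 with the per-time block. In posterior fragments 0 were called by edgeR with 1 block. By the study's criterion 0 passed there, beside 3.47% of all tested loci as higher and 3.25% as lower. The per-time block called 2 higher there, beside 2.43%. In anterior fragments that block called 8 higher, beside 12.5% of all tested loci.

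Immediate early families are represented by 6 loci, of which 0 were called by edgeR in either fragment at 3 hpb with 1 block. All 6 values were positive in both, with medians of 1.38 in anterior and 1.24 in posterior fragments. The study's criterion was passed as higher by 2 and 1, beside 7.3% and 3.47% of all tested loci. With the per-time block Fra2, Btg4 and Jun were called in anterior fragments and Btg4 in posterior fragments. That block called 12.5% and 2.43% of all tested loci higher there. Fos, the Jun partner that is induced beside Egr in vertebrates, had 1.45 (SE 1.23) in anterior and 1.63 (SE 1.23) in posterior fragments. It was at 138 and 88.0 CPM in controls and at 371 and 264 CPM in anterior fragments, and at 8.71 and 399 CPM in controls at 6 dpb. Myc had 0.06 and 0.67 and was not called.

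The regulators that the study names beside Egr matched 13 loci, of which 2, both Jnk, were called higher and 0 lower in anterior fragments at 3 hpb, beside 2.31% and 4.76% of all tested loci. With library size alone or without a block 0 were called. The study chose this list on these samples, so its direction is not independent evidence. The median was 1.62 in anterior and 0.92 in posterior fragments. In the latter 0 were called by edgeR with 1 block and 3 passed the study's criterion as higher, beside 3.47% of all tested loci. Without replicate 2 of the controls at 3 dpb, 3 were called in anterior fragments. Klf2/4, a Krüppel-like factor, had 2.26 (SE 0.71), Runt1, a Runx family factor, 2.19 (SE 0.67) and FoxO, a stress-responsive forkhead factor, 1.04 (SE 0.38). The Creb3l3 loci, of a membrane-bound Creb family factor, had 1.62 and 1.64. With the per-time block 3 were called higher in posterior fragments, beside 2.43% of all tested loci. They were Mcl and a locus each of Creb3l3 and Elk. In anterior fragments that block called 11 higher and 1 lower, beside 12.5% and 14.5% of all tested loci. The 1 lower was a locus of Toe1 (XLOC_016916), whose vertebrate relative is a target of Egr1, with a log2 fold change of -1.92 in that fit and of -1.96 (SE 0.74, edgeR adjusted p = 0.128) with 1 block.

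Genes that limit the pathway had values in both directions. Among 13 loci of Nab and Toe1, MAP kinase phosphatases, Sprouty and Spred, 2 were called higher and 0 lower in anterior fragments at 3 hpb, beside 2.31% and 4.76% of all tested loci, with a median of -0.71. With library size alone 1 was called higher and 3 lower, beside 0.975% and 11.2% of all tested loci, and without a block 0 in either direction. Dusp10, a phosphatase of Jnk and p38, was at 204 and 240 CPM in controls, 1001 and 903 CPM in anterior and 859 and 870 CPM in posterior fragments. Its log2 fold change was 2.13 (SE 0.36, edgeR adjusted p = 0.00524) in anterior and 1.98 (SE 0.36, edgeR adjusted p = 0.0897) in posterior fragments, the latter called with the per-time block (edgeR adjusted p = 0.00292). Spred, an inhibitor of Ras and Raf signalling, had 1.55 (SE 0.35) in anterior fragments and was the other locus called. Dusp1, the phosphatase that is itself an immediate early gene in vertebrates, had 1.97 (SE 0.55, edgeR adjusted p = 0.0531). Nab1L, named for the Nab corepressors of Egr, had 0.95 (SE 0.45) and was not called. The loci of Toe1, which the study calls a repressor of Egr, had -1.96 and -0.88 and were not called with 1 block, at levels of at most 4.91 CPM in any library. In posterior fragments 0 were called by edgeR with 1 block, beside 0.0252% and 0.0409% of all tested loci called higher and lower. There 3 passed the study's criterion as higher and 1 as lower, beside 3.47% and 3.25% of all tested loci. With the per-time block, 3 were called higher and 3 lower in anterior fragments, beside 12.5% and 14.5% of all tested loci. In posterior fragments that block called 2 higher and 1 lower, beside 2.43% and 1.86%.

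Of 10 loci of Klf and Sp factors, which share the zinc finger type of Egr, 0 were called higher and 1 lower in anterior fragments at 3 hpb, beside 2.31% and 4.76% of all tested loci. The lower one was Klf15, at 16.8 and 18.0 CPM in controls and 1.50 and 0 CPM in anterior fragments, a log2 fold change of -5.02 (SE 1.15, edgeR adjusted p = 0.0245). It was at 32.1 and 4.69 CPM in posterior fragments, below both controls in replicate 2 and above them in replicate 1. At 3 and 6 dpb its level in anterior fragments did not exceed 0.256 CPM. In posterior fragments it was 17.8 and 5.54 CPM at 3 dpb and 5.68 and 7.98 CPM at 6 dpb. Fragments were compared with whole larvae. For genes that changed in opposite directions in the fragments, the paper attributes the apparent fall to the cells and tissues removed by the cut. Whether this holds for Klf15 was not tested. In posterior fragments at 3 hpb 0 loci of the list were called by edgeR with 1 block. There 1 passed the study's criterion as higher and 1 as lower, beside 3.47% and 3.25% of all tested loci. The per-time block called 0 higher and 1 lower there, beside 2.43% and 1.86% of all tested loci. The lower one was Sp2 at a log2 fold change of -2.28. In anterior fragments that block called 2 higher (Klf2/4 and a Klf7 locus) and 2 lower (Klf15 and Sp2), beside 12.5% and 14.5%. Without a block the call of Klf15 was lost. With library size alone 0 were called higher and 2 lower, beside 0.975% and 11.2% of all tested loci.

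In posterior fragments at 6 dpb, no locus of these lists was called with 1 block. The per-time block called 2 of the regulators named beside Egr, 4 of the promoter factors and 1 of the MAP kinase list lower there, beside 3.3% of all tested loci. The 2 regulators were the Elk loci, which are also among the 4 promoter factors. They adjoin on scaffold 5323 (17445 to 18667 and 18771 to 30030), and whether they are parts of 1 gene was not tested.

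**Figure D4:**
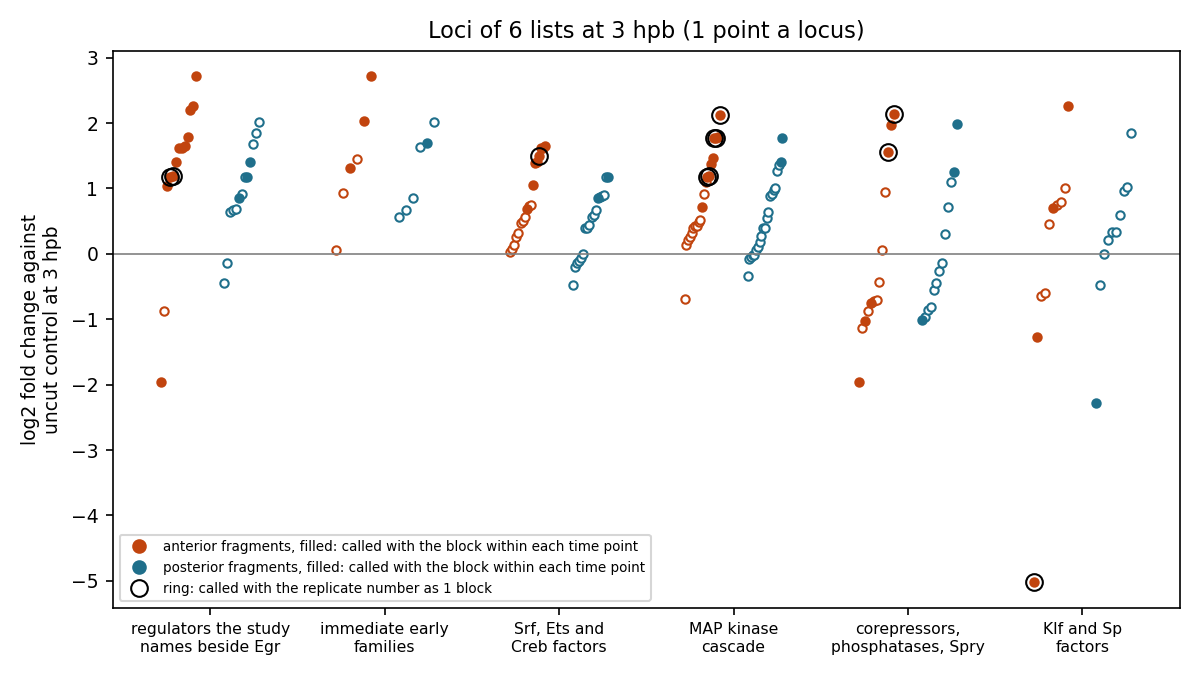
Log2 fold change against uncut controls at 3 hpb of each tested locus in 6 lists of related genes, some of which share loci, in anterior (orange) and posterior (blue) fragments; filled points were called with the per-time block and rings with the replicate number as 1 block. Most points of the MAP kinase list lie above 0 (20 of 21 in anterior fragments), and the lowest point is Klf15 at -5.02.

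Loci beside Egr on the scaffold were examined because reads beyond the end of a gene model can fall on them. Egr has the lowest coordinates of 11 loci on its scaffold. The nearest locus, XLOC_041703 (18284 to 20081), starts 343 bases beyond the 5′ end of Egr, and has no strand in the assembly. It held 3 reads in each control at 3 hpb, 131 and 32 in anterior and 92 and 19 in posterior fragments. Its log2 fold change was 4.99 (SE 1.10, edgeR adjusted p = 0.0213) in anterior and 4.14 (SE 1.08, edgeR adjusted p = 0.197) in posterior fragments, the latter 0.00299 with the per-time block. XLOC_041704 (20658 to 22237) had 8 and 1 reads in controls, 157 and 22 in anterior and 96 and 12 in posterior fragments, with log2 fold changes of 4.40 (SE 1.29) and 3.38 (SE 1.25). Neither was called with 1 block, and both were with the per-time block. Their r to Egr was 0.84 and 0.83.

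The locus XLOC_041699 lies on the opposite strand, from 11343 to 24013, and shares 330 exon bases with Egr. Whether the counting used strand is not stated, but it held only 59 reads in all 18 libraries and at most 28 in 1 library, beside 21272 of Egr there.

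The study describes Egr RNA in the coelomic pouches of uncut larvae and, by 3 hpb, strong expression at the closing wounds as well. The libraries hold whole fragments, so the wound site was not measured apart. A list of pouch markers was set beside the result. Of the 3 genes on that list, pax6 and eya were taken as markers of the pouches, while the study places Dach in gut and ciliary band. The log2 fold changes of pax6, eya and Dach1 at 3 hpb were 0.36, 0.18 and 0.29 in anterior and -0.13, 0.16 and 0.40 in posterior fragments, and none was called. The level of pax6 was 26.0 and 36.6 CPM in controls, 50.6 and 33.5 CPM in anterior and 33.0 and 26.5 CPM in posterior fragments, and none of the 3 was at 0. For the gut markers foxa and gatae the summed level was 336 to 355 CPM in controls. It was 162 to 179 CPM in anterior and 368 to 496 CPM in posterior fragments. Alone, gatae was lower in anterior fragments than in whole control larvae (log2 fold change -1.73, edgeR adjusted p = 0.00788). Whether gut tissue removed by the cut accounts for this was not tested. The summed level of the 2 neuronal elav loci was 73.8 to 96.5 CPM in controls. It was 130 to 147 CPM in anterior and 75.1 to 123 CPM in posterior fragments, and neither locus was called with 1 block. That of the mesenchyme markers ets1 and erg was 32.1 to 65.3 CPM in controls, 58.8 to 60.4 CPM in anterior and 37.1 to 69.3 CPM in posterior fragments. The part of these tissues, or of the wound site, in the level of Egr was not tested.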

How the data were processed

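The authors sequenced RNA of 18 pools, mapped the reads to assembly v1.0 of P. miniata with TopHat2 2.0.12, assembled loci with Cufflinks 2.2.1 and deposited raw counts per locus from HTSeq 0.6.1p1, without normalization. A second deposited table names the loci and holds the authors' log2 fold changes, which were not used, and another gives exons. Reads on no locus (2.37% to 3.65%) and on several loci (6.12% to 8.74%) were left out. So were alignments that were not unique, 34.1% to 46.0% of all that was counted in a library. Their share was 42.6% to 46.0% in libraries of replicate 1 and 34.1% to 37.4% in those of replicate 2. Whether this bears on the differences between replicates was not tested.

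Samples were grouped by the fragment, time and replicate in their labels. The 31798 loci above 3 CPM in 2 or more libraries were fitted in edgeR 4.0.16 (R 4.3.3) with TMM factors (0.673 to 1.23), a term for each of the 9 groups and the replicate number as the block, after the study's batch term, which its text does not define. Quasi-likelihood F tests were adjusted over all tested loci. Standard errors are the log2 fold change divided by the root of F. Log2 CPM used a prior count of 2. The numbers pair the samples: differences between replicates correlated between groups of the same time point (r 0.742 to 0.916 over 9 pairs) and between time points (0.179 to 0.675 over 27 pairs), and fragments and controls were siblings. With 2 libraries a group, intervals rest on the spread shared across loci.

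Alternatives were no block, a replicate term at each time point (per-time block), other scalings, DESeq2 1.42.0, no filter, fewer time points and leaving out each library. The code was tested on simulated data. Genes were named by a rule: the locus, its nearest neighbours, the 8 most alike named loci, and the largest called changes of each list; other list members were named after their values were seen. The gene and the lists were chosen with earlier results of these data known. Figures used Python 3.11.15 and matplotlib 3.10.9.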

Additional observations from a re-analysis of the deposited data

How the results depend on the processing

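Of 133 alternative values of the 19 tests of Egr, 122 kept direction and side of the threshold, 8 passed it and 3 changed sign. With the per-time replicate block the passing log2 changes were 3.91 and 3.06 (anterior and posterior fragments at 3 hpb) and -4.21 and -3.14 (anterior and posterior, 3 hpb to 3 dpb). With only the libraries of 3 hpb they were 3.91 and 3.09, and in DESeq2 4.12 (anterior at 3 hpb) and -5.01 (anterior, 3 hpb to 3 dpb). For the changes between times, the p of the per-time block leaves out the spread between pools of the same time. Without the replicate block the changes at 3 hpb were 4.02 and 3.16, not called. The sign changed for posterior fragments at 6 dpb, which moved from -0.10 to 0.0066 with the per-time block, 0.030 with library size alone and 0.0097 with the 6 dpb libraries alone. The mean level of posterior fragments at 6 dpb was 27.3 CPM with library size alone. The common dispersion was 0.146 with 1 block, 0.0475 with the per-time block and 0.341 without a block.

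Leaving out each library in turn kept the sign at 3 hpb, with ranges of 1.89 to 5.85 in anterior and 1.07 to 4.97 in posterior fragments. These fits used 1 replicate effect for all times. Within replicates the log2 differences at 3 hpb were 3.64 to 4.19 in anterior and 2.83 to 3.30 in posterior fragments. The sign changed in the other comparisons with controls, with ranges of -2.52 to 1.21 and -3.06 to 2.44 at 3 dpb and -0.29 to 1.13 and -0.86 to 0.59 at 6 dpb in anterior and posterior fragments. Anterior less posterior ranged from -1.36 to 3.05, -2.09 to 1.41 and -0.13 to 1.25 at 3 hpb, 3 dpb and 6 dpb. The change of controls ranged from -1.91 to 2.105 to 3 dpb and from -2.94 to 0.78 to 6 dpb, and that from 3 to 6 dpb from -0.74 to 0.39 in anterior and -2.77 to 0.74 in posterior fragments. The libraries that set the upper ends at 3 hpb were replicate 1 of the controls, and the lower ends replicate 1 of each fragment.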

Other observations

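At 3 dpb the medians of the 6 lists of related genes, as log2 fold changes against controls, ranged from -0.33 to 0.22 in anterior and from -0.28 to 0.08 in posterior fragments, beside 0.02 and -0.01 for all tested loci. At 6 dpb they ranged from -0.23 to 0.11 in anterior and from -0.52 to -0.02 in posterior fragments, beside 0.01 for all tested loci in both. The lowest median in posterior fragments at 6 dpb was that of the immediate early families (-0.52), followed by the regulators named beside Egr (-0.48) and the factors that act on Egr promoters (-0.38).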
